A study of Equus caballus with 6 samples.

Results

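Cathepsin K (CTSK, ENSECAG00000019087), prosaposin (PSAP, ENSECAG00000021672) and clusterin (CLU, ENSECAG00000007010) were 3 of the 26992 entries measured in equine tenocytes. They were taken by identifier because they rank among the most abundant transcripts of these cells, so their high abundance is what chose them and is described without a test. Their response to knockdown of the tendon transcription factor scleraxis (Scx) was compared between the groups. CTSK had nearly equal mean levels in both groups, PSAP was lower in all 3 Scx siRNA libraries, and CLU ranged from far below to far above the control libraries within the Scx siRNA group. In limma, the main analysis, none of these differences passed the threshold on the adjusted p. PSAP did pass in 7 of 12 alternative analyses of all 6 libraries.

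Tenocytes, the resident fibroblasts of tendon, were isolated from the superficial digital flexor tendons (SDFT) of 1 horse, a 5-year-old female, and were used at passage 3. By nucleofection they received either a siRNA directed at equine Scx or a non-targeting scramble siRNA, at 10 nmol each, and both groups were grown on silicone plates coated with collagen type I. After 24 h of adhesion and 18 h in medium with 1% serum, both groups were stretched cyclically (1% strain, 0.5 Hz, 2 h per day for 3 days), and RNA was taken 30 min after the last cycle. The experiment was done 3 times, giving 3 scramble control and 3 Scx siRNA libraries of polyA-enriched RNA. All cells were from 1 animal, so the p-values measure the spread between these repeats and not that between horses.

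The siRNA duplex is shown because it is the agent that separates the groups. Each strand has 21 bases, of which 19 pair and 2 overhang at the 3′ end. Capitals mark bases 2 to 8 of the antisense strand, the seed through which a guide strand recognizes its targets.
Scx siRNA sense strand, 5′ to 3′: agagaaaguugagcaaggatt
Scx siRNA antisense strand, 5′ to 3′: uCCUUGCUcaacuuucucugg
No transcript sequence of CTSK, PSAP or CLU was used here, so they were not searched for matches to this seed.

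Lysosomes are acidic organelles in which hydrolases break down material taken up from outside the cell or delivered from within it. Cathepsin K is a cysteine protease that cleaves collagen and elastin, best known from the osteoclast, which secretes it to resorb bone matrix. Prosaposin is the precursor of the saposins, small proteins that present sphingolipids to the lysosomal enzymes that degrade them, and it is also secreted. Clusterin is a secreted chaperone that holds misfolded proteins in solution outside the cell until they can be taken up and degraded in lysosomes.

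The libraries had 6539504 to 12213421 reads counted on genes. The Scx siRNA libraries differed far more among themselves than the scramble control libraries did, with a common dispersion in edgeR of 0.360 against 0.0129. Scx siRNA replicate 2 stood apart from replicates 1 and 3 by chi-square per degree of freedom, with 114 and 120 against 25.4 between the other pair. By the root mean square log2 difference all 3 Scx siRNA libraries were far apart. It was 1.63 and 1.76 for the pairs with replicate 2 and 1.42 between replicates 1 and 3. Between control libraries it was 0.36 to 0.42. The scramble control libraries had 13151 to 13392 genes with a read and the Scx siRNA libraries 11026 to 11183, and genes with only 1 to 3 reads numbered 1221 to 1306 and 78 to 164. This difference went with the groups, and its part in the results on CTSK, PSAP and CLU was not tested. Of the tenocyte markers, COL1A1, COL1A2, DCN, COMP, MKX and THBS4 had reads in all 6 libraries, whereas tenomodulin (TNMD) had a count of 0 in every library, as did the endothelial marker SELE. Scx itself was covered by 5, 7 and 25 reads in the controls and by 5, 0 and 0 after Scx siRNA. Its log2 fold change of -2.19 ± 1.14 (SE) had an adjusted p of 0.192 in limma, and Scx siRNA replicate 1 held as many Scx reads as scramble control replicate 1. The study itself measured a significant fall of Scx by qPCR in the sequenced samples. It also reported significantly fewer reads on the Scx mRNA after Scx siRNA, and described a GC bias that reduced the coverage of this mRNA.

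Values are normalized counts, the reads of a gene divided by the size factor of its library, and the reads themselves were recovered from them. Over the 6 libraries CLU ranked 9 with a mean of 60593, CTSK ranked 10 with 50744 and PSAP ranked 11 with 42671. The nearest genes outside this run were decorin (DCN), a collagen-binding proteoglycan, at rank 8 with 66957, and the collagen chain COL6A3 at rank 12 with 39358. The last gene within the 25 most abundant was FAP with 20454, and the gene at rank 26, ENSECAG00000010554, had 19775. These ranks follow reads and are not per transcript length, so they do not order the molecules of one gene against those of another. Each value rested on at least 22189 reads, and its counting error was 0.333 to 0.671%. For PSAP and CLU the range over the repeats of a group was far wider than this. In normalized counts, CTSK of scramble control replicates 1 and 2 differed by less than their counting error. As shares of reads, 0.642 and 0.647%, they differed by more than this error. That error covers counting only, since reads copied by PCR are not independent.

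**Figure D1:**
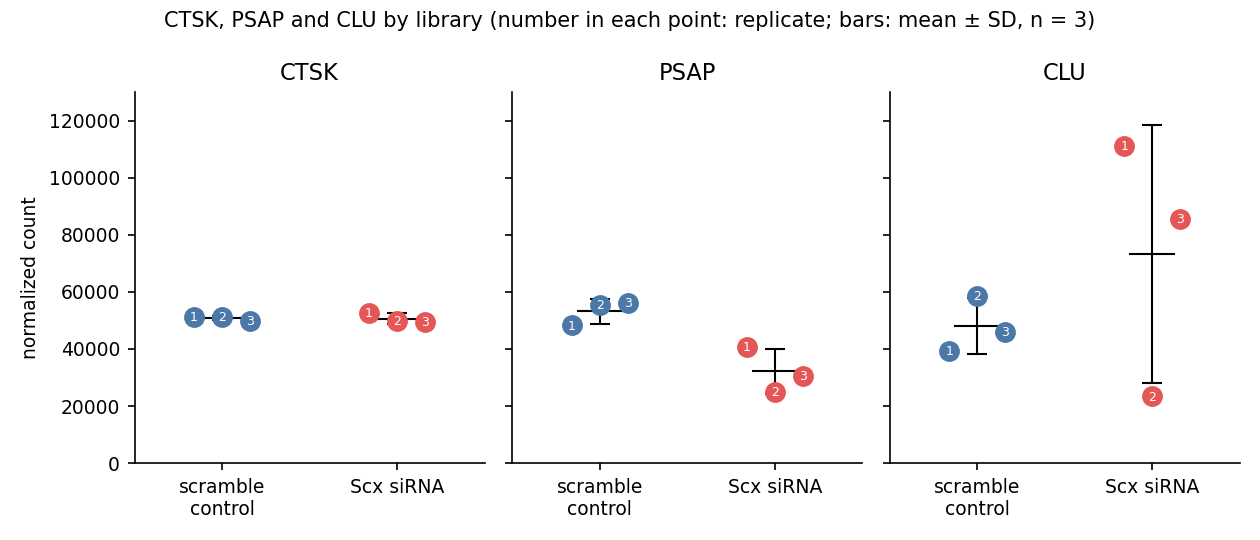
Normalized counts (vertical axis) of CTSK, PSAP and CLU in each library, by group, with the replicate number in each point and bars for the mean ± SD (n = 3). CTSK lies at about one level in all 6 libraries, PSAP is lower in every Scx siRNA library, and CLU of Scx siRNA replicate 2 lies at 23379 while replicates 1 and 3 lie at 110978 and 85437.

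CTSK, the collagen-cleaving protease, had normalized counts of 51247, 51345 and 49926 in the scramble control libraries. In the Scx siRNA libraries it had 52753, 49785 and 49407. All 6 values lay close together and the groups overlapped, with the Scx siRNA libraries reaching both above and below the whole control range. The group means were 50839 ± 792 and 50649 ± 1833 (SD, n = 3 each), and the log2 fold change was -0.01 ± 0.19 (SE), with an adjusted p of 0.984 in limma. Its 95% interval ran from -0.46 to 0.45, a fold of 0.727 to 1.36, so changes within that range remain possible. Of the 100 most abundant genes, 0 had a log2 fold change closer to zero.

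The steadiness of CTSK within groups was as marked as that between them. Its coefficient of variation was 1.56% in the scramble control, where the other 99 of the 100 most abundant genes all varied more. In the Scx siRNA libraries it was 3.62%, and 95 of the 100 varied more, against a median of 24.8%. In Scx siRNA replicate 2, which stood apart by chi-square, CTSK was only 0.04 below the mean of replicates 1 and 3 on the log2 scale.

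The comparison of CTSK between groups depended on how libraries were scaled. As a share of all reads on genes, CTSK took 0.642, 0.647 and 0.639% of the scramble control libraries, and the 95% Wilson intervals spanned 0.635 to 0.652% in all. It took 0.547, 0.487 and 0.547% of the Scx siRNA libraries, with intervals from 0.483 to 0.553%. On this scale every Scx siRNA library was below every control library. The share of all genes tested that did so on this scale was not counted. With libraries scaled to total reads the log2 fold change of CTSK was -0.29 (limma adjusted p of 0.262) and with cyclic loess normalization it was -0.41 (limma adjusted p of 0.102). Total-read scaling also lowered the median log2 fold change of all genes tested by 0.28, about as much as it lowered that of CTSK. Cyclic loess normalization instead raised the median of all genes tested by 0.16. Under it the median of the 100 most abundant genes was -0.05, against 0.35 in the main analysis.

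PSAP, the saposin precursor, had normalized counts of 48227, 55434 and 56042 in the scramble control libraries. It had 40592, 25081 and 30652 in the Scx siRNA libraries. The groups did not overlap, and the highest Scx siRNA value lay below the lowest control value. Groups without overlap were common, however, with 25.8% of all 11517 genes tested lower in every Scx siRNA library and 48.1% apart in either direction. In bulk RNA, fewer cells expressing a gene and less of its RNA per cell cannot be told apart.

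The mean of PSAP was 53234 ± 4347 in the scramble control and 32108 ± 7857 in the Scx siRNA group (SD, n = 3 each), and its rank by group mean was 8 and 16. The log2 fold change was -0.75 ± 0.24 (SE), a level 40.7% lower, with a 95% interval from -1.32 to -0.19 that corresponds to a fold of 0.400 to 0.879. The adjusted p in limma was 0.0588, just outside the threshold of 0.05. Among the 100 most abundant genes 14 had a lower log2 fold change, while the median of that set was 0.35 and the median of all genes tested was -0.20.

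The call for PSAP turned on the scaling, the filter on low genes and the test, whereas its direction did not. Of 12 alternative analyses of all 6 libraries, 7 put it under the threshold, of which 5 were limma fits with another scaling or filter and the others were edgeR on the recovered reads (-0.77, adjusted p of 0.0339) and DESeq2 (-0.73, adjusted p of 0.00944). The direction was negative in all 12 and in each of the 6 fits that left out 1 library. Without Scx siRNA replicate 1 or replicate 2 the adjusted p in limma was 0.0436 or 0.0412, where 23.2% or 42.4% of all genes tested passed. Without Scx siRNA replicate 3 the adjusted p in limma was 0.0864, where 32.2% passed. Without a control library it was 0.131 to 0.201, where 4.50 to 7.64% passed. The size was below the limit of 1.5 on the log2 scale that the study set for differential expression in each of these 18 fits.

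CLU, the secreted chaperone, had normalized counts of 39280, 58631 and 45853 in the scramble control libraries. It had 110978, 23379 and 85437 in the Scx siRNA libraries. Replicates 1 and 3 of the Scx siRNA group lay above the whole control range and replicate 2 lay below it, so the groups overlapped in the widest sense. The highest Scx siRNA value was 4.75 times the lowest, compared with 1.49 times in the control. By reads CLU ranked 13, 6 and 12 in the control libraries and 3, 37 and 5 in the Scx siRNA libraries.

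As a share of reads, CLU took 1.15% of Scx siRNA replicate 1 (95% Wilson interval 1.14 to 1.16%) and 0.229% of replicate 2 (0.226 to 0.232%). Counting error was therefore small beside the distance between these libraries. The mean of CLU was 47921 ± 9840 in the control and 73264 ± 45050 in the Scx siRNA group (SD, n = 3 each). The log2 fold change was 0.36 ± 0.56 (SE), with an adjusted p of 0.658 in limma, and 0 of the 100 most abundant genes had a larger standard error. The 95% interval of -0.96 to 1.67, a fold of 0.515 to 3.19, left room for a fall as well as a rise.

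**Figure D2:**
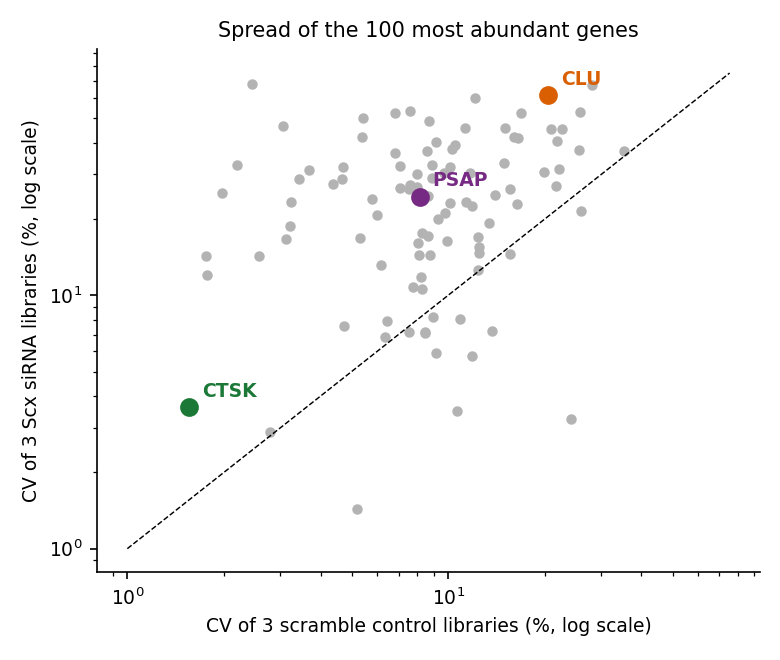
Coefficient of variation (%) over the 3 Scx siRNA libraries (vertical, log scale) against that over the 3 scramble control libraries (horizontal, log scale) for the 100 most abundant genes, with a dashed line where both are equal. CTSK sits at 1.56 and 3.62%, PSAP at 8.17 and 24.5% near the middle of the set, and CLU at 20.5 and 61.5% near its upper end.

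The 3 genes thus covered the low end, the middle and the high end of the spread between repeats. The coefficient of variation of PSAP was 8.17% in the control and 24.5% in the Scx siRNA group, close to the medians of the 100 most abundant genes, 8.75% and 24.8%. That of CLU was 20.5% and 61.5%, and only 11 and 2 of the 100 genes varied more. For CTSK and CLU the Scx siRNA libraries lay on both sides of the whole control range, as they did for 22 of the 100 most abundant genes and for 31.1% of all genes tested.

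The value of CLU rested on Scx siRNA replicate 2. In that library CLU was 2.06 lower on the log2 scale than the mean of replicates 1 and 3, and no other gene of the 100 most abundant had a gap as low or as large. Among all genes tested 1177 had a gap at least as low, CLU included. Without this library the log2 fold change of CLU was 1.04, with an adjusted p of 0.0124 in limma, while it was -0.08 without replicate 1 and 0.11 without replicate 3. Leaving out replicate 2 also raised the share of all genes under the threshold from 25.0% to 42.4%, and a fit chosen by the library it omits is no independent evidence of a rise. With all 6 libraries the log2 fold change of CLU was -0.0034 after quantile normalization and -0.05 after cyclic loess normalization.

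Replicate 2 did not lower abundant genes in general. It held the lowest of the 3 Scx siRNA values for 33 of the 100 most abundant genes and the highest for 53. The pattern of CLU, with replicate 2 below and replicates 1 and 3 above the control range, was found in 4 of these 100 genes and in 5.49% of all genes tested. The others were the elongation factor EEF1A1, the cytoplasmic actin ACTG1 and ENSECAG00000013874, with gaps of -1.38, -1.21 and -0.76. The opposite pattern was found in 10 of the 100 and in 6.28% of all genes tested.

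By limma 0 of CTSK, PSAP and CLU had an adjusted p under 0.05, against a background of 25.0% of all genes tested (2882 of 11517). At an unadjusted p under 0.05 the count was 1, PSAP, against 39.7% of all genes, and edgeR and DESeq2 on the recovered reads each called 1, again PSAP. Of the genes called by limma 12.9% of all tested were higher and 12.1% lower in the Scx siRNA group, and 9.84% also passed the study's limit on fold change. The background was smaller when a control library was left out, 7.64% without scramble control replicate 1, 4.50% without replicate 2 and 5.12% without replicate 3. It was 23.2% and 32.2% without Scx siRNA replicates 1 and 3. With all libraries it was 22.6% when all genes with any read were tested, 31.9% for genes with a mean of at least 50, 22.8% after cyclic loess normalization, 24.1% in edgeR and 32.6% in DESeq2.

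**Figure D3:**
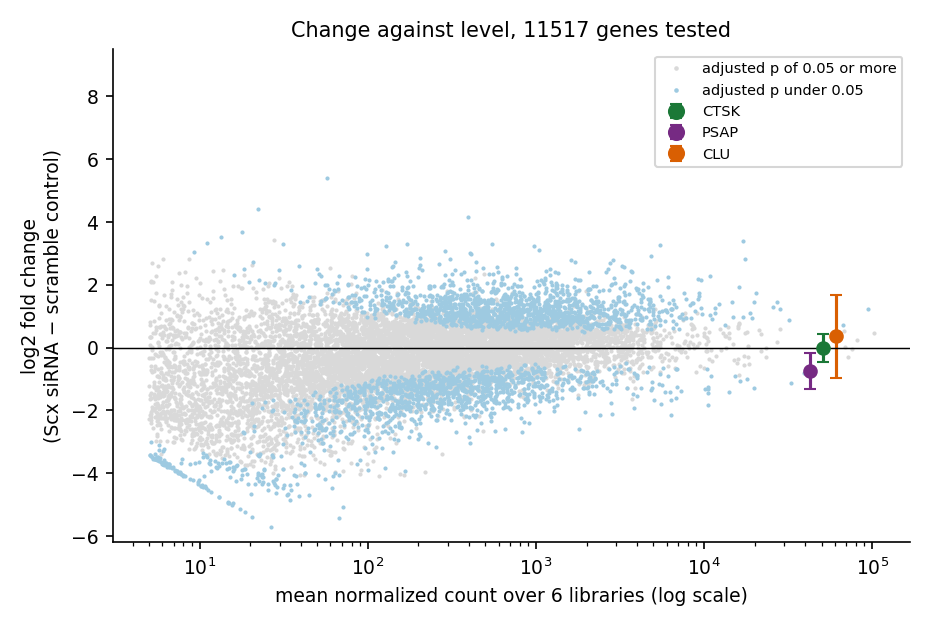
Log2 fold change, Scx siRNA minus scramble control (vertical), against the mean normalized count over 6 libraries (horizontal, log scale) for the 11517 genes tested, in light blue where the adjusted p is under 0.05, with 95% limma intervals for CTSK, PSAP and CLU. The 3 genes lie at the right end at -0.01, -0.75 and 0.36, and the interval of CLU is the widest of the 3.

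Ratios between genes within a library do not change with the scaling of that library, so the 3 genes were also compared with each other. The log2 ratio of PSAP to CTSK was -0.09, 0.11 and 0.17 in the scramble control and -0.38, -0.99 and -0.69 in the Scx siRNA libraries. The groups did not overlap and differed by -0.75, and the exact two-sided permutation test gave p = 0.1, the smallest value that 3 libraries against 3 can reach, or 0.3 after adjustment over the 3 ratios. PSAP was thus lower relative to CTSK in every Scx siRNA library under any scaling that applies 1 factor to a whole library.

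The log2 ratio of CLU to PSAP was -0.30, 0.08 and -0.29 in the control and 1.45, -0.10 and 1.48 in the Scx siRNA libraries. Replicate 2 of the Scx siRNA group lay within the control range, and the groups differed by 1.11 with an exact permutation p = 0.2 (0.3 adjusted). The log2 ratio of CLU to CTSK was -0.38, 0.19 and -0.12 against 1.07, -1.09 and 0.79. Its difference of 0.36 had an exact permutation p = 0.7 (0.7 adjusted), and 1 of the 3 Scx siRNA values lay below every control value.

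**Figure D4:**
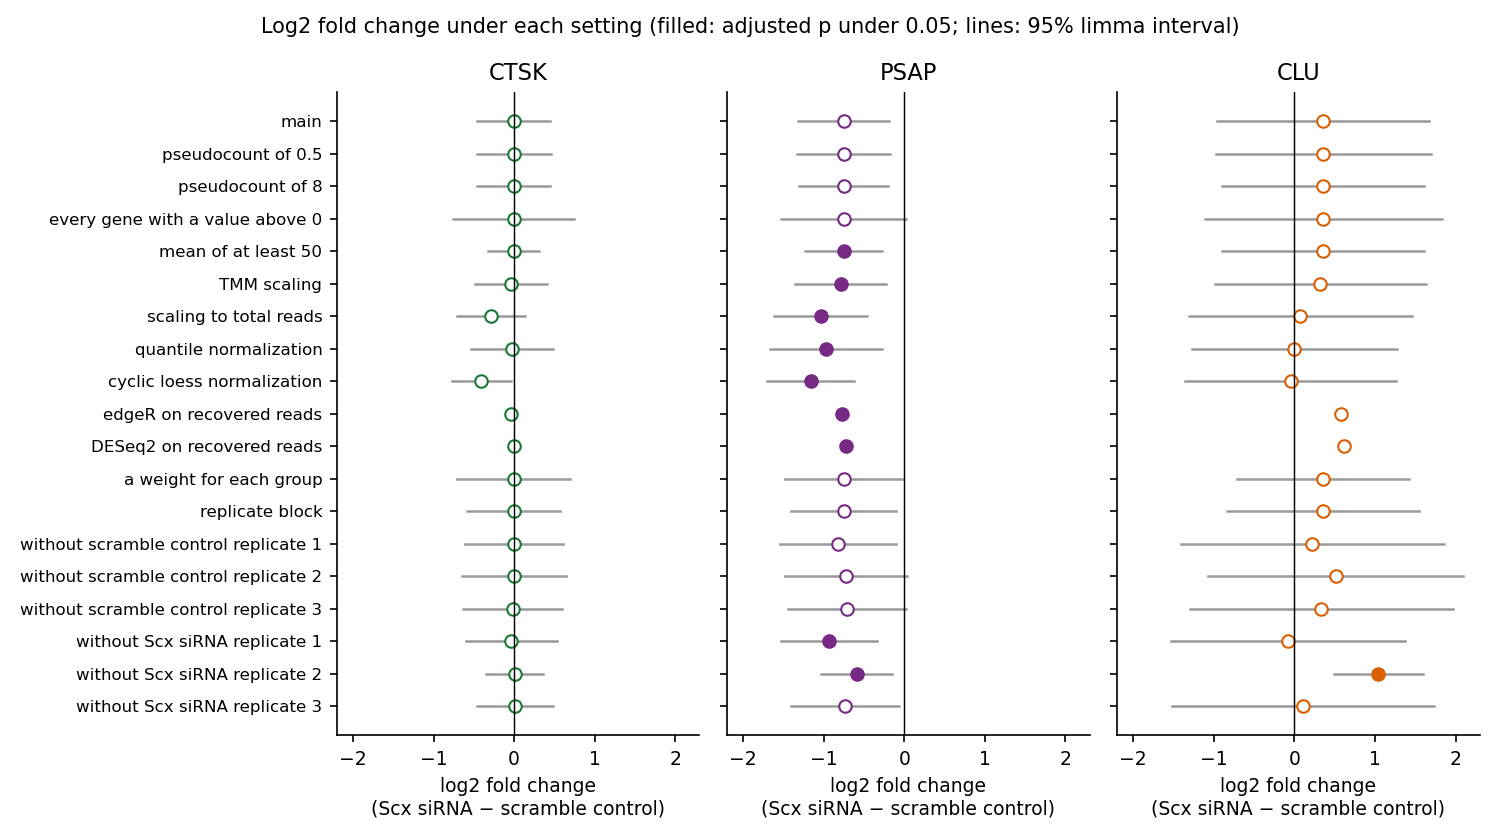
Log2 fold change (Scx siRNA minus scramble control, horizontal) of CTSK, PSAP and CLU under the main analysis, 12 alternatives and 6 fits with 1 library left out (rows), filled where the adjusted p is under 0.05, with 95% intervals for limma fits. PSAP stays below zero throughout and is filled in 9 of the 18 alternatives, CTSK is filled in 0, and CLU is filled only without Scx siRNA replicate 2.

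The genes whose pattern over the 6 libraries was most like that of each gene were taken from 87 other tested genes with a known name, by the root mean square (RMS) difference of their centred log2 values. For CTSK these were fibronectin (FN1) at 0.09, the amyloid precursor APP at 0.12 and the chaperone HSPA8 at 0.12, against a median of 0.56 over the 87. For PSAP they were the gelatinase MMP2 at 0.18, COL6A3 at 0.19 and the growth factor TGFB3 at 0.21, with a median of 0.63. Their log2 fold changes of -0.89, -0.82 and -1.05 follow from the choice by likeness to PSAP over the same libraries and are given as a description. For CLU the nearest were EEF1A1 at 0.27, ACTG1 at 0.40 and fibulin 1 (FBLN1) at 0.41, with a median of 0.92. These distances grow with a gene's own spread, which was widest for CLU, so they do not rank how closely its pattern was matched.
Likeness over 6 libraries was not rare. Over all genes tested 22 were at least as near to CTSK as FN1, 105 as near to PSAP as MMP2, and 55 as near to CLU as EEF1A1.

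Genes of related function were grouped from the names that the study's tables pair with identifiers, and since some of those tables were drawn up on these samples, the lists are no independent evidence of a direction. The lysosome and endosome list held 8 genes of lysosomal enzymes, membrane traffic and their regulation, not all of them lysosomal. Of these 0 rose, 2 fell and 6 did not pass, a share equal to the 25.0% of all genes tested that passed (12.1% lower). Its median log2 fold change was -0.54, against -0.20 for all genes tested, with a range from -1.49 to 0.43. ARSB, the lysosomal sulfatase that removes sulfate from dermatan and chondroitin sulfate, fell from 638 ± 46.8 to 235 ± 74.2 (SD, n = 3 each), a log2 change of -1.49 ± 0.28 (SE; limma adjusted p of 0.0116). CYTH3, an exchange factor for ARF proteins in membrane traffic, fell from 808 ± 53.3 to 423 ± 43.9, a log2 change of -0.94 ± 0.18 (SE; limma adjusted p of 0.0113).
GBA2, a glucosylceramidase that acts outside the lysosome, was at 408 to 440 in the control and at 106 to 309 in the Scx siRNA libraries, with a log2 fold change of -0.99 and a limma adjusted p of 0.123. Without Scx siRNA replicate 2 it was -0.48 and passed (limma adjusted p of 0.0311). The clathrin heavy chain CLTC, with 0.43, and MITF, a transcription factor of lysosomal genes in some cells, with 0.20, did not pass (limma adjusted p of 0.210 and 0.512). The log2 fold changes of RNF41, YIPF3 and COMMD7 were -0.46, -0.61 and -0.04 and did not pass either. Scx siRNA replicate 2 held the lowest of the 3 Scx siRNA values in 6 of the 8 genes, as it did for PSAP and CLU. It did so for 33 of the 100 most abundant genes. The share over all genes tested was not counted, and the likeness to PSAP and CLU was not tested.

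The chaperone and protein quality control list, the setting of CLU, had 4 genes, not all of them chaperones. Of these 0 passed in limma, against 25.0% of all genes tested. Its log2 fold changes ran from -0.31 to 0.19 with a median of -0.05. At an unadjusted p under 0.05 the count was also 0, beside 39.7% of all genes tested. By edgeR and DESeq2 on the recovered reads it was 0 as well, beside 24.1% and 32.6%. After cyclic loess normalization the amyloid precursor APP, not itself a chaperone, passed, at -0.50 with a limma adjusted p of 0.0448. HSP90AA1, an abundant cytosolic chaperone, had 24146, 22991 and 23527 in the control and 19830, 55378 and 17624 in the Scx siRNA libraries. Its replicate 2 was thus high where that of CLU was low. HTRA1, a secreted serine protease, had 20678, 23280 and 30689 in the control and 28222, 10414 and 26653 in the Scx siRNA libraries, with replicate 2 the lowest as in CLU.

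**Figure D5:**
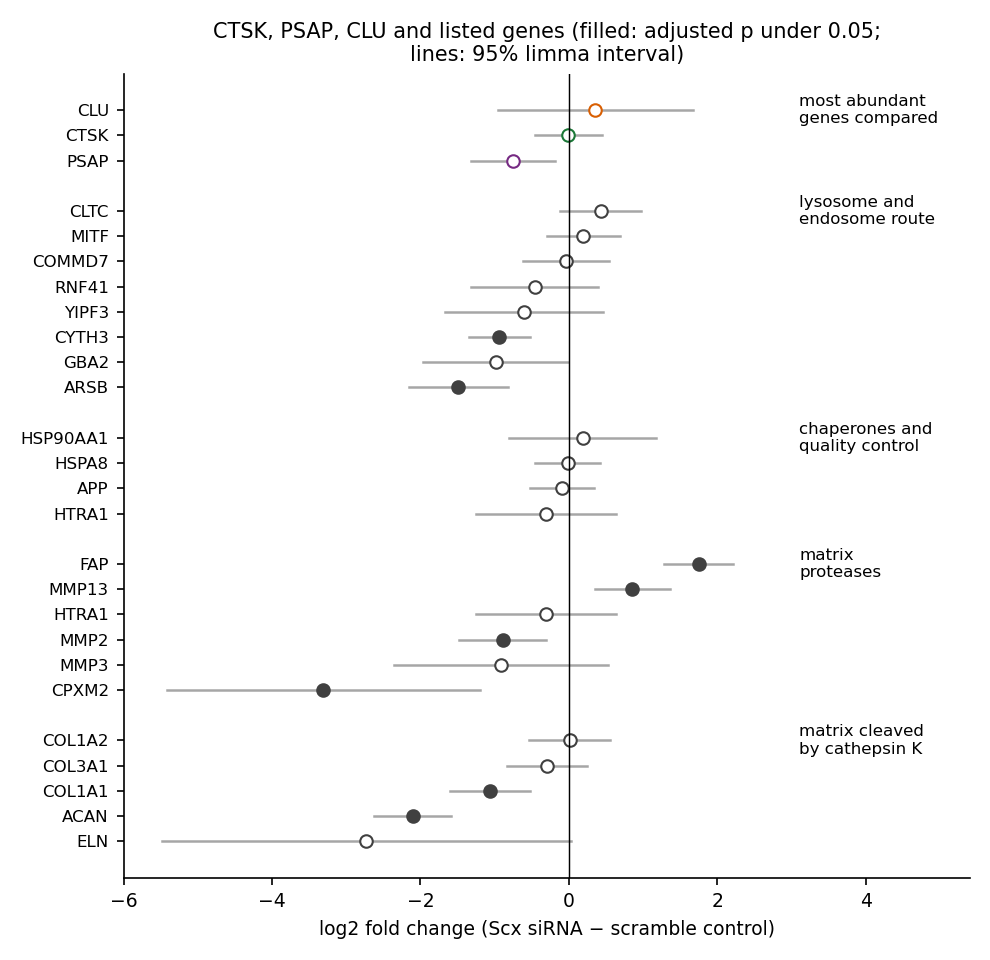
Log2 fold change (Scx siRNA minus scramble control) with 95% limma intervals for CTSK, PSAP, CLU and the tested genes of 4 lists, filled where the adjusted p is under 0.05. In the lysosome and endosome list 2 of 8 genes are filled, both below zero, in the chaperone list 0 of 4, among matrix proteases 4 of 6 and among matrix proteins cleaved by cathepsin K 2 of 5.

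Matrix proteases beside CTSK were listed next, and their differences from CTSK were not tested. Of 8 on the list 6 were expressed highly enough to test, and 2 rose, 2 fell and 2 did not pass, with a median log2 fold change of -0.60. Of all genes tested 12.9% were called higher and 12.1% lower. FAP, a membrane-bound serine protease of activated fibroblasts, rose from 9326 ± 806 to 31582 ± 5434 (SD, n = 3 each), a log2 change of 1.75 ± 0.20 (SE; limma adjusted p of 0.00308). The collagenase MMP13 rose from 3366 ± 286 to 6192 ± 1543, with 0.85 ± 0.22 (SE; limma adjusted p of 0.0286), whereas MMP2 fell by 0.89 on the log2 scale (limma adjusted p of 0.0380). CPXM2, placed on the list by its carboxypeptidase family and not by a measured activity, fell from 246 ± 12.9 to 38.0 ± 31.6 (limma adjusted p of 0.0351). With total-read scaling, quantile or cyclic loess normalization MMP13 no longer passed, and CPXM2 no longer passed with the last of these. MMP2 did not pass when all genes with any read were tested (limma adjusted p of 0.0533), and MMP13 and CPXM2 did not pass without Scx siRNA replicate 1 (limma adjusted p of 0.0695 and 0.0561). MMP1 and DPP4 had means under 5 normalized counts and were not tested.

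Of 5 matrix proteins that cathepsin K can cleave, 0 rose, 2 fell and 3 did not pass, beside 12.1% of all genes tested that were called lower. COL1A1, a chain of type I collagen, fell from 21993 ± 2493 to 10679 ± 2483 (SD, n = 3 each), with -1.06 ± 0.23 (SE; limma adjusted p of 0.0178). The proteoglycan aggrecan (ACAN) fell from 495 ± 67.3 to 114 ± 5.24, with -2.10 ± 0.22 (SE; limma adjusted p of 0.00281). COL1A2, COL3A1 and elastin (ELN) had log2 fold changes of 0.01, -0.30 and -2.73, with limma adjusted p of 0.971, 0.368 and 0.129, and ELN had no reads in Scx siRNA replicates 2 and 3. Of the other 22 genes among the 25 most abundant, 7 rose and 2 fell, beside 12.9% and 12.1% of all genes tested. The median log2 fold change of the 22 was 0.45.
Over all lists together 16 of 36 tested genes passed, 8 in each direction, beside 25.0% of all genes tested. Of the 100 most abundant genes 42 passed, 28 higher and 14 lower. Without scramble control replicate 1 the count over the lists was 5, beside 7.64% of all genes tested. Without scramble control replicate 2 or 3 it was 3, beside 4.50% and 5.12%. ARSB, CYTH3, MMP2, MMP13, CPXM2 and COL1A1 were each past the threshold in none of these 3 fits.

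In the RefSeq annotation of the horse assembly TB-T2T, which is not the build of these counts, CTSK lies between ARNT and the cysteine protease gene CTSS, PSAP between CDH23 and CHST3, and CLU between GULO and SCARA3. A long non-coding RNA overlaps CTSK and another overlaps PSAP there, while none overlaps CLU. The sources used here do not say whether reads were counted by strand, so reads of such overlapping genes may have been counted with CTSK or PSAP or left uncounted.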

How the data were processed

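RNA of 6 libraries was sequenced, and the authors used Trimmomatic for trimming, HISAT2 for alignment to EquCab2 and HTSeq for counting on the features of Ensembl release 90. The submitters' processing notes name bcl2fastq 1.8.4, FastQC 0.11.3, HISAT2 2.0.3 and DESeq2 1.12.4, while the strand setting of the counting is not given in the sources used here. The deposited values are a signal, normalized counts that the authors obtained by dividing each library's counts by a DESeq2 size factor. In each library 100% of the values were whole multiples of the value of 1 read within a tolerance of 0.001, which returned the counted reads. The authors' own comparison columns in the same table (mean, fold change, standard error, Wald statistic and p-values) were not used. Each column was assigned to its sample through the sample number in its name.

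The 11517 genes whose mean reached 5 normalized counts were compared two-sided by limma 3.58.1 (R 4.3.3) with a trended prior and no covariate, after adding 1 and taking log2, and p-values were adjusted by the Benjamini-Hochberg method over all of them. A gene passed at an adjusted p under 0.05. Adding 1 shrinks fold changes of low genes, yet on this scale they can still exceed those of a count model. The log2 fold change of CPXM2 was -3.31 here, against -2.71 in edgeR and -2.68 in DESeq2. Within-library ratios were compared with exact two-sided permutation tests. The alternatives were pseudocounts of 0.5 and 8, testing all genes with any read, a minimum mean of 50, scaling by TMM or total reads, quantile and cyclic loess normalization, the recovered reads in DESeq2 1.42.0 and in the quasi-likelihood test of edgeR 4.0.16, a weight for each group, omission of single libraries and a block on the replicate number. The models were also run on simulated data, and a gene that did not pass is not thereby shown to be unchanged.

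The genes named are CTSK, PSAP and CLU, the genes of the lists, the 3 genes of most similar pattern to each and Scx. EEF1A1, ACTG1 and ENSECAG00000013874 were named for a pattern after their values were seen, and DCN, FAP and ENSECAG00000010554 as neighbours in rank. The genes and lists were chosen with earlier results of these data known. Names came from the study's tables, which pair 103 genes with an identifier, and the reference table (TB-T2T) matched 1 identifier, that of Scx. Further lysosomal and chaperone genes were therefore not analysed here.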

Additional observations from a re-analysis of the deposited data

How the results depend on the processing

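The log2 fold change of PSAP kept its direction under all 18 alternatives and passed the adjusted threshold in 9. It was -0.75 (adjusted p of 0.0289 in limma) with a mean of at least 50, -0.79 (0.0493) with TMM, -1.04 (0.0221) with total reads, -0.97 (0.0442) with quantile and -1.16 (0.0129) with cyclic loess normalization, -0.77 in edgeR and -0.73 in DESeq2. With 1 library left out it ran from -0.94 to -0.59. CTSK passed in none, and with 1 library left out it ran from -0.036 to 0.012, turning positive without scramble control replicate 2 (0.0013), Scx siRNA replicate 2 (0.0062) or replicate 3 (0.012). CLU turned negative with quantile (-0.0034) and cyclic loess normalization (-0.046) and without Scx siRNA replicate 1 (-0.081), and passed only without replicate 2 (1.04). The log2 ratio of CLU to CTSK ran from -0.045 (without Scx siRNA replicate 1) to 1.04 with 1 library left out. The other direction changes were MITF with total reads (-0.086), HSP90AA1 with total reads (-0.094), cyclic loess normalization (-0.22) and without Scx siRNA replicate 2 (-0.33, up to 0.49 without replicate 3), HSPA8 without scramble control replicate 3 (0.077) or Scx siRNA replicate 3 (0.018, down to -0.085 without scramble control replicate 1), and HTRA1 without Scx siRNA replicate 2 (0.16, down to -0.56 without replicate 1). For each of these the cause was not tested. With 1 library left out, the share of all genes under the threshold was 4.50 to 42.4% and the list genes that passed numbered 3 to 20, where fewer libraries also mean a weaker test. With total reads 31.7% of calls were higher, against 51.6% in the main analysis.

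Deviations of libraries with the same replicate number correlated at -0.08, 0.02 and 0.17, and not every library correlated best with its own number. With so few libraries, and the wide spread within the Scx siRNA group, these correlations cannot decide whether the numbers pair the samples. With the replicate block the log2 fold changes of CTSK, PSAP and CLU stayed at -0.01, -0.75 and 0.36 (adjusted p of 0.988, 0.0930 and 0.631 in limma), the ratios kept their values of 1.11, 0.36 and -0.75, 18.4% of all genes passed and 14 list genes did.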
